A study of Bos taurus with 36 samples.

Results

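The transcripts described here encode the building blocks of the cytoskeleton in the liver of dairy cows: actins and the proteins that bind them, tropomyosins, myosin light chains, tubulins and keratins. They were taken as the probe sets whose single annotated symbol begins with TUBA, TUBB, TUBG, ACTN1 to ACTN4, ACTR, ARPC, CAPZ, CFL1, CFL2, PFN1, PFN2, TPM1 to TPM4, or MYL or KRT with a digit, or is ACTB or ACTG1. This gave 66 genes out of 9156 that the annotation names, read by 91 probe sets out of 24128 on the array (13318 of which carry 1 symbol). They comprise 3 probe sets of actins, 1 of profilin, 2 of cofilins, 3 of capping protein, 7 of the Arp2/3 complex, 8 of actin-related proteins, 9 of alpha-actinins, 7 of tropomyosins, 9 of myosin light chains, 3 of alpha tubulins, 5 of beta tubulins, 8 of gamma tubulin and its complex, and 26 of keratins.

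Actin monomers assemble into filaments that profilin feeds, cofilin severs, capping protein stops and the Arp2/3 complex branches, while tropomyosins wrap around the filament and alpha-actinins tie filaments together. Alpha and beta tubulin pair to form microtubules, which grow from rings of gamma tubulin and along which secretory vesicles travel. In the hepatocyte actin lies beneath the membrane and around the bile canaliculi, and the keratin network of this cell is built of KRT8 and KRT18.

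Liver biopsies were taken from 8 healthy Holstein-Friesian cows in first lactation, and all 8 received 200 micrograms of Escherichia coli lipopolysaccharide (LPS) in the right front gland of the udder and saline in the left. Groups are the hours relative to this infusion: -22 hours, before LPS, and 9 and 48 hours in all 8 cows, and 3, 6 and 12 hours in 4 of them (numbered 1, 3, 7 and 8 here). No array holds liver of a cow without LPS, so in these arrays the infusion cannot be told apart from the passing of time or from repeated biopsies. The study's methods also describe a separate control with cows given saline alone, which was not analysed here. By the paper's account, taking biopsies had no effect in it on clinical measures or on selected genes. Each of the 36 arrays, Affymetrix Bovine Genome Arrays with several short probes to a probe set, holds 1 cow at 1 hour.

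Values are log2 intensities normalized by the authors with GCRMA, so a change of 1 is a doubling, and array medians lie between 4.15 and 4.38. Precision is limited by the few cows at each hour. A change counted as called when its adjusted p was below 0.05 (limma, Benjamini-Hochberg over all probe sets within an hour), and SE is the standard error of the fit. Because probe sets near the bottom of the scale, at a log2 value of about 2, can be called on very small shifts, counts are led by the 51 cytoskeletal probe sets (42 genes) whose log2 value averaged 5 or more over all arrays. Such bright probe sets numbered 11141 on the whole array, and the other 40 members lay lower. Of these 40, 20 were called at some hour, and no called probe set with a mean below 3 moved by more than 0.27. Of the 51, 47 were called at some hour. The counts of 20 and 47 are not results about these genes, as the share called at some hour was not taken over all probe sets. At 9 hours alone 40.4% of all bright probe sets were called higher and 38.8% lower.

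The 8 hepatocyte markers averaged between 14.15 and 14.76 on every array, though 2 of them were higher and 4 lower at 6, at 9 and at 12 hours. The 4 measured neutrophil markers (S100A8, S100A9, S100A12 and CXCR1) moved with the hours: the array medians of their mean level were 4.72 at -22 hours, 7.54 at 3, 8.42 at 6, 9.80 at 9, 10.29 at 12 and 6.79 at 48 hours. All 4 were higher at 9 and at 12 hours, and 3 of 4 at the other hours. Of 7 measured markers of leukocytes (T cells, monocytes and macrophages among them), 2 were higher at 6 and at 9 hours. At 12 hours 1 was higher and 1 lower. Of the 6 endothelial markers 4 were lower and 1 higher at 6 and at 9 hours. At 12 hours 2 were lower, and at 48 hours 3 were lower and 1 higher. Of 6 stellate and smooth muscle markers 2 were lower at 6 and at 9 hours and 1 higher at 6 hours. Of 6 fibroblast markers 1 was lower at 6 and at 9 hours and 1 higher at 9 hours. Both of these lists had 1 higher and 1 lower at 12 hours. Of 5 markers of bile duct cells, 2 were higher at 6, at 9 and at 12 hours, and 1 was lower at 9 hours. The part of these cells in the cytoskeletal changes was not tested, and in whole tissue a change in the number of cells of a type cannot be told apart from a change in RNA per cell. The 3′ minus 5′ difference of the GAPDH control probe sets is a sign of RNA integrity that rises as 5′ signal is lost. It was lower at 9 hours than at -22 hours in 8 of 8 cows, by 0.31 ± 0.20 on the log2 scale (mean and SD, exact sign-flip test, two-sided, p = 0.00781, the smallest p that 8 cows allow). Its medians were 0.19 at -22 hours, -0.01 at 3, -0.09 at 6, -0.10 at 9, -0.31 at 12 and -0.21 at 48 hours. It was below the cow's own value before LPS in 4 of 4 cows at 3 hours and 3 of 4 at 6 hours. At 12 hours this held in 3 of 4 cows and at 48 hours in 8 of 8. The same difference of the actin control probe sets was 0.20 ± 1.03 higher at 9 hours, with 3 of 8 cows lower (same exact test, p = 0.562). These controls are annotated to ACTA1, a marker of skeletal muscle, and the 3′ one ranged from 4.79 to 12.71 over the arrays. Their difference is therefore not read as a sign of RNA integrity. The part of RNA integrity was not tested either.

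Called changes of the cytoskeletal transcripts were few at 3 hours, mostly downward at 6 hours and mostly upward at 12 hours. At 3 hours, and for lower values at 6 hours, their shares were near those of all bright probe sets. At 3 hours 4 of the 51 were higher and 1 lower than at -22 hours, 7.84% and 1.96%, beside 6.15% and 3.61% of all bright probe sets. At 6 hours 7 were higher (13.7%, beside 31.6%) and 22 lower (43.1%, beside 39%). By 9 hours 22 were higher (43.1%, beside 40.4%) and 11 lower (21.6%, beside 38.8%). The split was widest at 12 hours, when 29 were higher (56.9%, beside 37%) and 7 lower (13.7%, beside 32.7%). After 48 hours none was called higher by limma (0%, beside 11.4%) and 17 were lower (33.3%, beside 22.3%), and without adjustment 2 were higher at a p below 0.05. At 6 hours the share of higher values was below that of all bright probe sets, and at 12 hours above it, with no test made of the set as such. In the 4 cows sampled at every hour alone, 13 instead of 22 were higher at 9 hours. That fit has fewer arrays, and its share over all bright probe sets was not taken, so the drop is not a result about these genes. The single lower call at 3 hours, TUBGCP3, was lost with the cow as a block, with those 4 cows alone and without the array of cow 7 at -22 hours, while array weights gave 3.

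**Figure D1:**
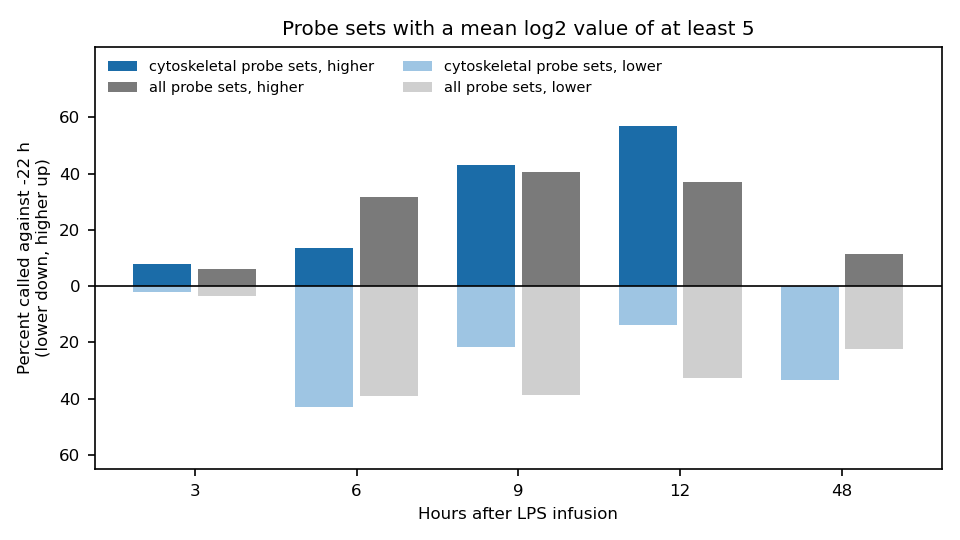
Percent of probe sets called higher (up) or lower (down) than at -22 hours, by hour after LPS (x axis), for the 51 bright cytoskeletal probe sets (log2 value averaging 5 or more, blue) and all 11141 bright probe sets (grey). The blue bar for higher values is the shorter of the pair at 6 hours (13.7% against 31.6%) and the taller at 12 hours (56.9% against 37%).

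Over all 91 members, dim ones included, 4 were higher and 1 lower at 3 hours, beside 3.5% and 2.4% of the 24128 probe sets. At 6 hours 14 were higher (15.4%, beside 23.3%) and 23 lower (25.3%, beside 22%), and by 9 hours 32 were higher (35.2%, beside 32%) and 12 lower (13.2%, beside 22.6%). The count at 12 hours was 30 higher (33%, beside 22.2%) and 8 lower (8.79%, beside 18.9%). Last, after 48 hours, 15 were higher (16.5%, beside 17.9%) and 17 lower (18.7%, beside 12.2%). The count of 15 was 3 to 18 when single cows were left out and 5 without the array of cow 1 at -22 hours, and the 14 at 6 hours were 6 to 12. All 15 were dim, and 11 of them were keratin probe sets near the bottom of the scale. Between successive hours 25 of the 91 (27.5%) were differentially expressed (DE), meaning a Bonferroni-adjusted p below 0.01 in at least 1 of the 5 successive comparisons, beside 22.2% of all probe sets. Of the 51 bright ones 24 were DE (47.1%), beside 42.8%.

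The median log2 change of the 51 was -0.01 at 3 hours, -0.27 at 6, 0.20 at 9, 0.46 at 12 and -0.17 at 48 hours. The medians over all bright probe sets were -0.02, -0.13, 0.03, 0.07 and -0.09 at the same hours. The 4 cows with arrays at both hours allow 12 hours to be set directly against 6 hours, a comparison added after the values had been seen. In it 36 of the 51 were higher at 12 hours and 1 was lower, beside 31.2% and 23.8% of all bright probe sets. The median difference was 0.71 for the 51 and 0.09 for all bright probe sets. In each of the 4 cows 37 of the 51 were higher at 12 hours. That count was not taken over all bright probe sets, so it is not a result about these genes. The 7 Arp2/3 subunits, the 3 capping protein probe sets, both cofilins and profilin were all called higher in it (70.6% of the 51 in all). A switch from lower than -22 hours at 6 hours to higher at 12 hours was called in 7 of the 51 (13.7%), beside 3.37% of all bright probe sets. These were the first ACTG1 probe set, both probe sets of TUBA4A, CAPZA2, CAPZB, MYL6 and the brightest probe set of ACTN4, and leaving out single cows left 5 to 7.

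**Figure D2:**
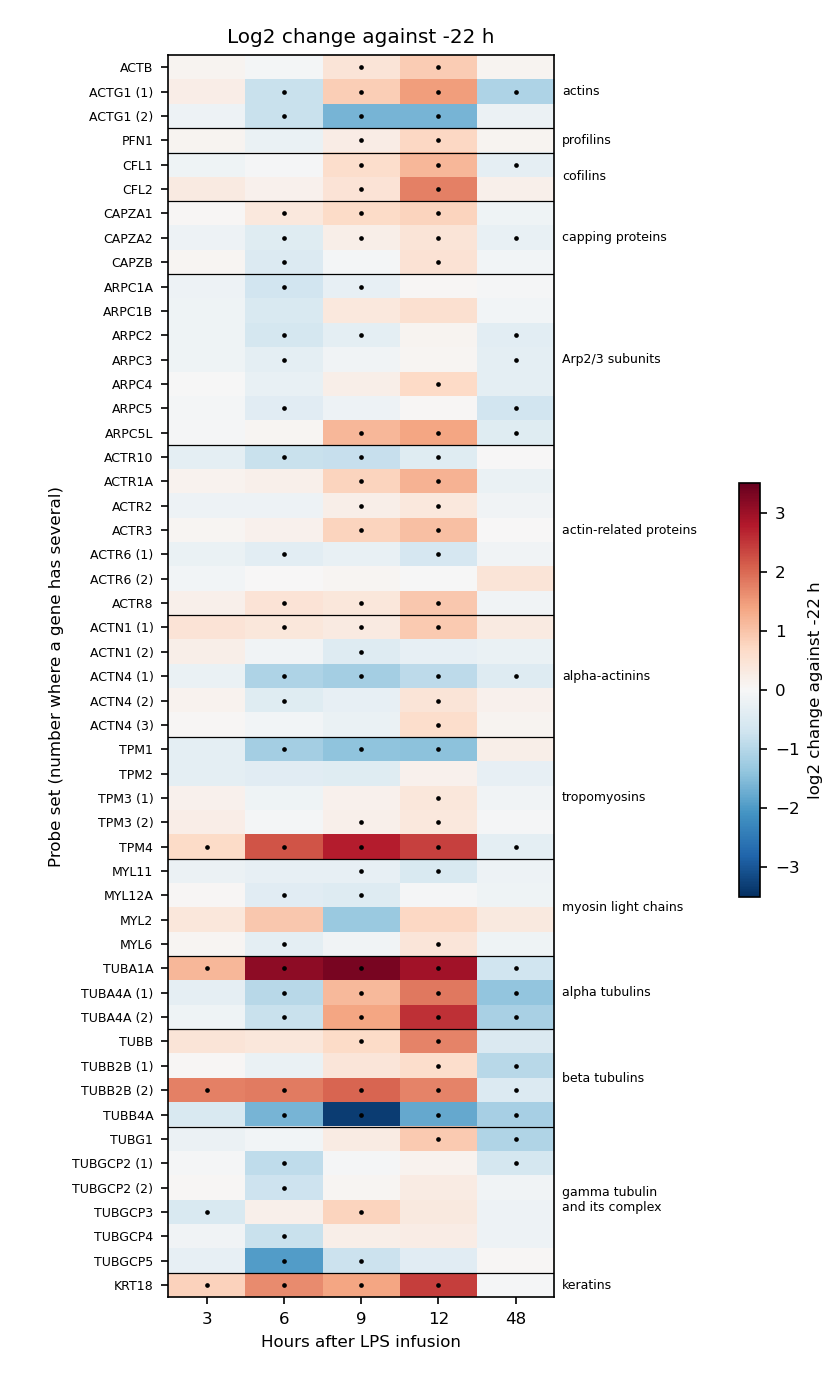
Log2 change against -22 hours (colour, red higher and blue lower) of the 51 bright cytoskeletal probe sets (1 line each, grouped by family) at 3, 6, 9, 12 and 48 hours after LPS (columns). Black points mark an adjusted p below 0.05. Blue prevails at 6 hours, with 22 called lower, and red at 12 hours, with 29 called higher, and TUBA1A and TPM4 are the darkest red lines.

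Among the monomers of the filament itself, ACTB, the beta-actin of non-muscle cells that is often used as a reference gene, was higher late. Its log2 values were 14.61, 14.51, 14.13 and 14.61 at 12 hours, against a lowest of 13.03, a median of 13.65 and a highest of 14.05 at -22 hours. The groups did not overlap. ACTB was 1.85-fold higher at 12 hours (log2 change 0.89, SE 0.14, adjusted p = 3.05e-06, with 4 of 4 cows higher) and 1.38-fold higher at 9 hours (0.46, SE 0.12, adjusted p = 0.000939, with 6 of 8 higher). At 6 hours the change was -0.06 (SE 0.14, adjusted p = 0.733).

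The other non-muscle actin, gamma-actin (ACTG1), is read by a pair of probe sets that took opposite directions. The first probe set (mean 12.66 over all arrays) had log2 values of 14.12, 14.05, 13.81 and 14.33 at 12 hours, against 12.28 to 13.00 (median 12.59) at -22 hours. It was lower at 6 hours (-0.79, SE 0.14), higher at 9 hours (0.85, SE 0.11) and at 12 hours (1.47, SE 0.14, adjusted p = 8.15e-11), and lower at 48 hours (-1.09, SE 0.11, lower in 8 of 8 cows). The second probe set (mean 12.09 over all arrays) had 11.43, 10.86, 11.53 and 10.82 at 12 hours, against 12.64 to 12.95 (median 12.77) at -22 hours. It was lower by the same amount at 6 hours (-0.79, SE 0.10) but went on to -1.64 at 9 hours (SE 0.08, adjusted p = 3.41e-17) and -1.63 at 12 hours (SE 0.10). At each of these hours all cows with both arrays moved the same way, and neither probe set overlapped at 12 hours with its values at -22 hours. The difference of the first minus the second had a median of -0.23 at -22 hours (range -0.48 to 0.22), 0.26 at 3 hours, -0.17 at 6 hours, 2.35 at 9 hours (1.52 to 2.80), 2.94 at 12 hours (2.28 or more on each array) and -1.03 at 48 hours (-1.35 to -0.62). The direction of ACTG1 as a gene from 9 hours on therefore depends on the probe set. It is the second probe set that was the 1 member lower at 12 than at 6 hours.

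**Figure D3:**
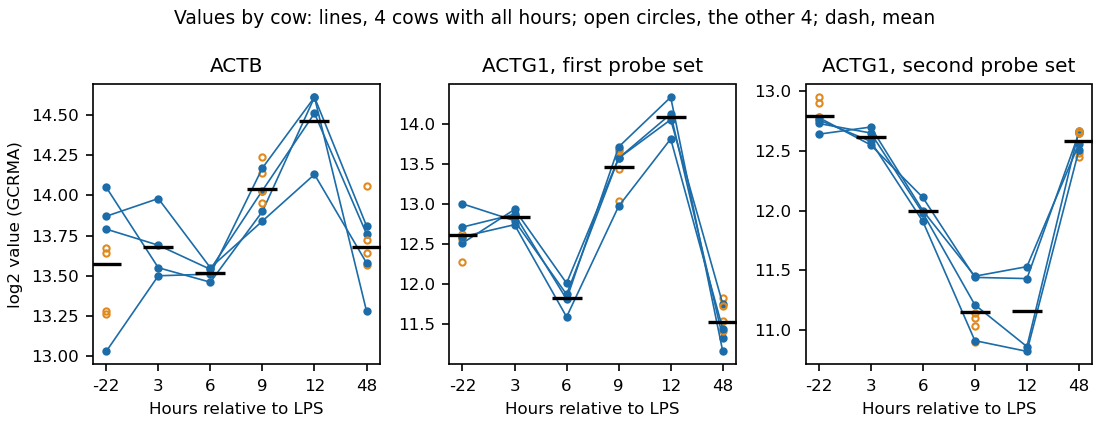
Log2 values (y axis) of ACTB and of the first and second ACTG1 probe set in every cow at each hour relative to LPS (x axis, hours evenly spaced), with lines for the 4 cows sampled at all hours, open circles for the other 4 and a dash for the mean. ACTB and the first ACTG1 probe set stand highest at 12 hours (means 14.46 and 14.07), while the second stands near its lowest there (11.16).

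Profilin, both cofilins and all 3 capping protein chains were higher at 12 hours, as were 37% of all bright probe sets. PFN1, profilin, which loads monomers for growth, had 12.84, 12.96, 12.60 and 13.12 at 12 hours, against 11.60 to 12.55 (median 12.24) at -22 hours, with no overlap and a change of 0.73 (SE 0.12, adjusted p = 8.23e-06). CFL2, the cofilin known from muscle, had 8.12, 8.00, 7.47 and 8.49 at 12 hours, against 5.72 to 6.61 (median 6.46) at -22 hours. The 2 groups lay apart, and the change was 1.75 (3.37-fold, SE 0.23, adjusted p = 1.4e-07). CFL1, the cofilin of non-muscle cells, was 2.22-fold higher (1.15, SE 0.13, adjusted p = 9.87e-09, with 4 of 4 cows higher). At 6 hours neither cofilin was called, with -0.04 for CFL1 and 0.14 for CFL2.

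Capping protein is a pair of an alpha and a beta chain. CAPZA1, an alpha chain, was higher at 6, 9 and 12 hours, by 0.37 (SE 0.07), 0.68 (SE 0.06) and 0.77 (SE 0.07, adjusted p = 1.11e-10), in all cows and without overlap at any of these hours. CAPZA2, the other alpha chain, and CAPZB, the beta chain, were lower at 6 hours, with -0.42 (SE 0.11) and -0.48 (SE 0.10), and higher at 12 hours, with 0.46 (SE 0.11, adjusted p = 0.000593) and 0.51 (SE 0.10, adjusted p = 9.66e-05). The alpha chains thus differed in direction at 6 hours.

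The Arp2/3 complex starts branches on existing filaments. Of its 7 ARPC subunits, 4 were lower at 6 hours and none was higher, beside 39% and 31.6% of all bright probe sets. At 12 hours 2 were higher and none lower, beside 37% and 32.7%. ARPC5L, a variant of the ARPC5 subunit, had 9.72, 9.94, 9.25 and 10.03 at 12 hours, against 8.03 to 8.59 (median 8.38) at -22 hours, with a change of 1.39 (2.62-fold, SE 0.14, adjusted p = 5.18e-10). ARPC5 itself had a change of 0.03 at 12 hours (SE 0.12, adjusted p = 0.861) and was lower at 48 hours (-0.66, SE 0.09, adjusted p = 8.02e-06, in 8 of 8 cows). ARPC2, which with ARPC4 forms the core, was lower at 6 hours (-0.61, SE 0.07, adjusted p = 8e-09) and at 48 hours (-0.36, SE 0.06), and ARPC1A was lower at 6 hours (-0.67, SE 0.10). ARPC4 was the other subunit called higher at 12 hours (0.71, SE 0.22, adjusted p = 0.00831, with 3 of 4 cows higher).

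The actin-related proteins fall into groups by role. ACTR2 and ACTR3, which give the Arp2/3 complex its name, were both higher at 12 hours: ACTR3 had 11.55, 11.63, 11.52 and 11.78, against 10.15 to 10.79 (median 10.57) at -22 hours, a change of 1.06 (SE 0.10, adjusted p = 5.79e-11), and ACTR2 had a change of 0.37 (SE 0.08, adjusted p = 0.000335). ACTR1A, the filament-forming subunit of dynactin, the partner of the microtubule motor dynein, was higher at 9 hours (0.79, SE 0.12) and 12 hours (1.22, SE 0.15, adjusted p = 3.53e-08), with no overlap at either. ACTR10, which caps the dynactin filament, moved the other way, with -0.78 at 6 hours (SE 0.17), -0.80 at 9 hours (SE 0.14, adjusted p = 9.51e-06, lower in 8 of 8 cows) and -0.42 at 12 hours. ACTR8 and ACTR6 work in the nucleus in chromatin remodelling: the dimmer ACTR8 probe set (mean log2 value 4.36) had 1.16 at 12 hours (SE 0.17) and the brighter one 0.95 (SE 0.16), while 1 of the ACTR6 probe sets had -0.60 (SE 0.15).

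Alpha-actinins, which crosslink filaments, did not move as a family. The probe sets of ACTN4, a non-muscle form, disagreed: the one with a mean of 8.85 was lower at 6, 9 and 12 hours, with -1.09 (SE 0.10), -1.20 (SE 0.08, adjusted p = 3.84e-14) and -0.92 (SE 0.10), and at 48 hours with -0.44, in all cows. The brightest (mean 9.98) was lower at 6 hours (-0.43, SE 0.17) and higher at 12 hours (0.45, SE 0.17, adjusted p = 0.0263), a call that was lost with the cow as a block (0.37, adjusted p = 0.0803), in the 4 cows sampled at every hour (0.22) and without cow 1, 3 or 6 (0.48, 0.49 and 0.41). The one with a mean of 5.80 was higher at 12 hours (0.62, SE 0.15, in 3 of 4 cows). The direction of ACTN4 at 12 hours thus depends on the probe set. ACTN1, the other non-muscle form, was higher at 12 hours by 0.91 (SE 0.16, adjusted p = 1.42e-05) through the probe set with a mean of 5.14, while its brightest probe set had -0.29 (adjusted p = 0.28).

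Tropomyosins set which proteins can reach the filament, and their genes went in opposite directions. TPM4 had 11.63 to 12.19 (median 11.98) at 9 hours, against 8.62 to 9.45 (median 9.28) at -22 hours. Every cow was higher and the groups lay far apart. It was already higher at 3 hours (0.68, SE 0.14, adjusted p = 0.00184), reached 2.75 at 9 hours (6.71-fold, SE 0.12, adjusted p = 2.44e-19), stood at 2.39 at 12 hours and was lower at 48 hours (-0.34, SE 0.12). TPM1 had 8.67 to 9.69 (median 9.07) at 9 hours, against 10.05 to 10.87 (median 10.65) at -22 hours. It too did not overlap, and was lower at 6 hours (-1.20, SE 0.17), at 9 hours (-1.41, SE 0.14, adjusted p = 2.03e-10) and at 12 hours (-1.44, SE 0.17), and near its start at 48 hours (0.21, adjusted p = 0.238). A dim TPM1 probe set (mean log2 value 4.38) went the same way up to 12 hours (-0.98, SE 0.24) and was higher at 48 hours (0.95, SE 0.20). TPM3 rose less, by 0.37 (SE 0.08) and 0.41 (SE 0.14) at 12 hours through its probe sets, and that of 0.41 was no longer called in the 4 cows sampled at every hour (0.36, adjusted p = 0.111) or without cow 8 (0.34).

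Of the myosin light chains, those of non-muscle cells changed modestly. MYL6, the essential light chain of non-muscle myosin, was lower at 6 hours (-0.33, SE 0.09) and higher at 12 hours (0.42, SE 0.09, adjusted p = 0.000264), and MYL12A, a regulatory chain, was lower at 6 hours (-0.39, SE 0.10) and 9 hours (-0.46, SE 0.08, adjusted p = 1.48e-05, in 8 of 8 cows). The light chains of striated muscle did not behave alike. The brighter MYL11 probe set (mean 5.33) was called lower at 9 and at 12 hours, with -0.53 at 12 hours (SE 0.14, adjusted p = 0.0023, in 3 of 4 cows). It had 5.35 in cow 6 at 48 hours. The dimmer MYL11 probe set (mean 2.53) was not called at any hour. It had 8.43 in cow 6 at 48 hours but 2.49 and 2.19 in cows 4 and 5 at -22 hours. MYL2, of slow and cardiac muscle, was not called at any hour but ranged from 3.32 to 11.28 over the arrays, with 11.28 in cow 6 at 48 hours, 10.03 and 9.27 in cows 4 and 5 at -22 hours, 9.08 in cow 7 at 12 hours and 8.92 in cow 8 at 6 hours. MYL1, of fast muscle, stood at 9.52 in that array of cow 6 and at 8.16 and 7.01 in those of cows 4 and 5, and the dimmer TPM2 probe set (mean 3.31) at 7.82, 6.41 and 5.12. The markers of skeletal muscle ACTA1 and MB, which are no members, were high on the same arrays: ACTA1 had 13.14 in cow 6 at 48 hours and 11.56 and 10.43 in cows 4 and 5 at -22 hours, and MB had 7.97, 7.25 and 6.59. Other markers did not all follow. TNNT3 and TNNI2 were high in cow 6 (6.14 and 7.36) but not in cows 4 and 5 (1.88 and 1.90, 2.18 and 2.21). The brightest probe sets of CKM and MYH7 had 7.43 and 9.43 in cow 6 at 48 hours. The other cows had 6.57 to 10.51 and 8.65 to 9.92 then. A dimmer probe set of each did stand high in cow 6 (8.13 and 8.63). Over all 10 measured markers of skeletal muscle, the mean level per array ranged from 5.76 to 8.96 at 48 hours and from 5.75 to 7.08 at -22 hours. Of these 10, 3 were lower at 9 and at 12 hours and 1 was higher, and none was called at 48 hours. Without the array of cow 6 at 48 hours no count of the members moved by more than 1.5 times.

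**Figure D4:**
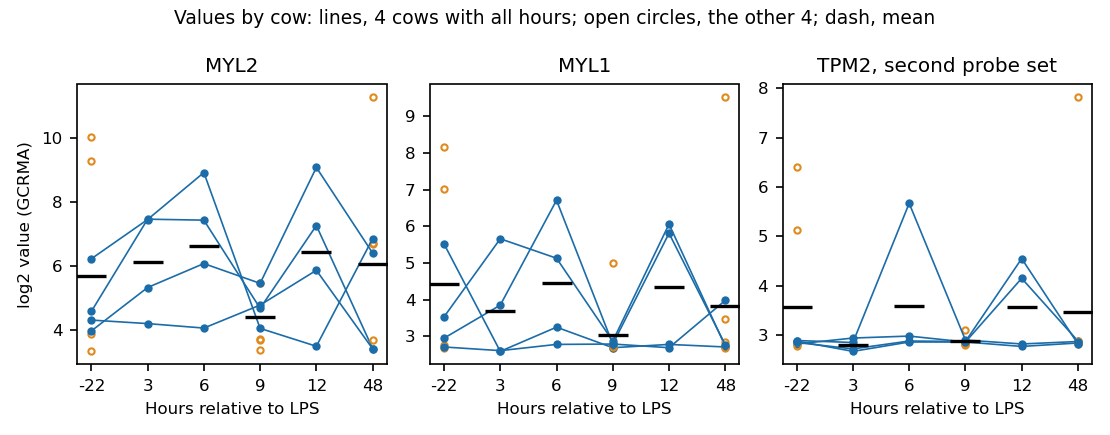
Log2 values (y axis) of MYL2, MYL1 and the dimmer TPM2 probe set in every cow at each hour relative to LPS (x axis, hours evenly spaced), drawn with lines for the 4 cows sampled at all hours, open circles for the other 4 and a dash for the mean. Single arrays stand far above the rest in all 3 panels, foremost cow 6 at 48 hours (11.28, 9.52 and 7.82).

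The largest changes among the 51 were those of an alpha tubulin, TUBA1A, and a beta tubulin, TUBB4A, in opposite directions. TUBA1A had 13.88 to 14.59 (median 14.15) at 9 hours, against 10.37 to 11.28 (median 10.90) at -22 hours. Its values were already 14.05, 14.05, 13.99 and 13.92 at 6 hours. There was no overlap at any hour from 3 to 12. It was 2.22-fold higher at 3 hours (1.15, SE 0.16, adjusted p = 4.73e-06), 8.72-fold at 6 hours (3.12, SE 0.16), 9.99-fold at 9 hours (3.32, SE 0.13, adjusted p = 4.2e-20) and 7.63-fold at 12 hours (2.93, SE 0.16), then lower at 48 hours (-0.69, SE 0.13, lower in 7 of 8 cows).

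TUBA4A, another alpha tubulin, first fell. Its first and brighter probe set had 8.40, 8.59, 8.66 and 8.65 at 6 hours, against 8.87 to 9.91 (median 9.58) at -22 hours. At 12 hours it had 11.09, 11.45, 11.13 and 11.88. Neither hour overlapped with -22 hours. The change was -0.97 at 6 hours (SE 0.21, adjusted p = 0.000258), 1.14 at 9 hours (SE 0.17), 1.84 at 12 hours (3.57-fold, SE 0.21, adjusted p = 7.95e-09) and -1.37 at 48 hours (SE 0.17, lower in 8 of 8 cows). The dimmer probe set traced the same course, with -0.79, 1.39, 2.56 (5.89-fold, SE 0.29) and -1.14. Between 6 and 12 hours they differed by 2.81 (SE 0.24) and 3.35 (SE 0.34), higher at 12 hours in 4 of 4 cows.

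Beta tubulins diverged as well. TUBB4A, a beta tubulin known best from the brain of humans and mice, had 6.61 to 7.97 (median 7.37) at 9 hours, against 10.35 to 11.84 (median 10.49) at -22 hours. It was lower in all 8 cows, with a change of -3.32 at 9 hours (9.97-fold lower, SE 0.22, adjusted p = 1.02e-14), and also at 6 hours (-1.62, SE 0.26), 12 hours (-1.79, SE 0.26) and 48 hours (-1.17, SE 0.22, in 8 of 8 cows). The highest value at -22 hours, 11.84, is that of cow 7, whose BioB spike-in control (11.14) also lay above that of the other arrays, and the next highest was 10.91. The TUBB2B probe set with a mean of 7.25 had 8.13, 8.19, 7.98 and 8.01 at 3 hours, against 5.90 to 6.79 (median 6.25) at -22 hours, and was 3.42-fold higher there (1.77, SE 0.17, adjusted p = 2.33e-09), the largest change at 3 hours among the 51. It stayed at 1.73 to 2.04 up to 12 hours. The TUBB2B probe set with a mean of 7.69 was not called before 12 hours (0.62, SE 0.23, adjusted p = 0.0295) and was lower at 48 hours (-0.98, SE 0.19). TUBB, the common beta tubulin of dividing and resting cells, was higher at 12 hours, with 9.42, 9.91, 8.99 and 9.68, against 6.90 to 8.50 (median 7.97) at -22 hours (1.73, SE 0.27, adjusted p = 2.06e-06). Actin and tubulin genes are close to identical in their coding parts, and the values do not show whether a probe set also read a sister gene.

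**Figure D5:**
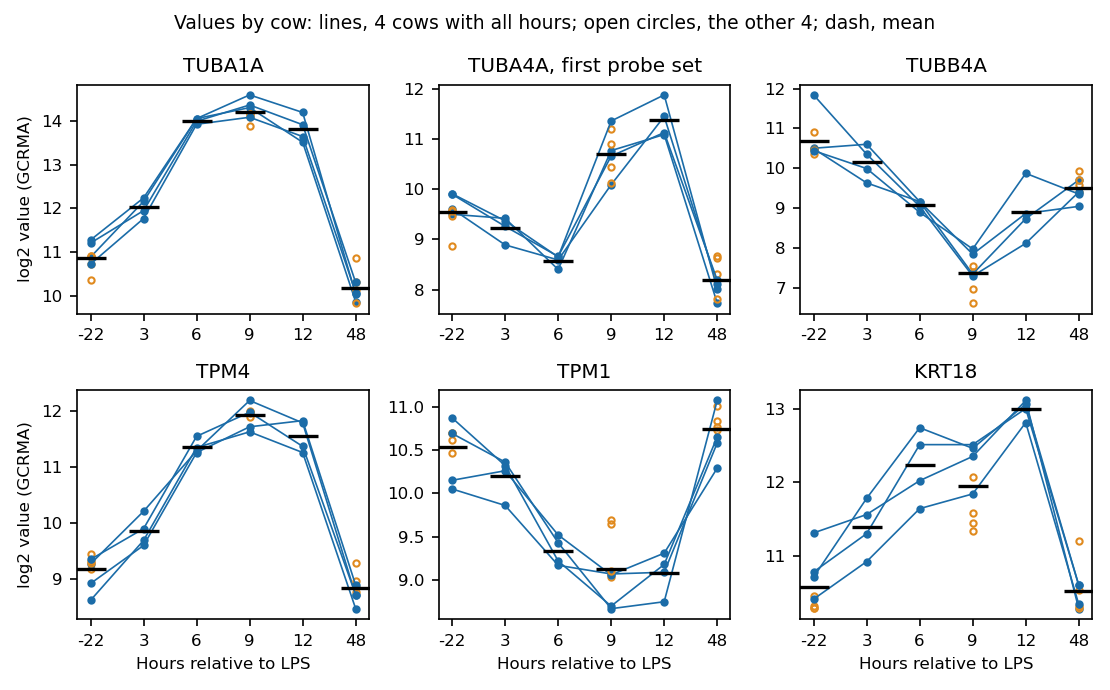
Log2 values (y axis) of TUBA1A, the first TUBA4A probe set, TUBB4A, TPM4, TPM1 and KRT18 in every cow at each hour relative to LPS (x axis, hours evenly spaced), with lines for the 4 cows sampled at all hours, open circles for the other 4 and a dash for the mean. TUBA1A and TPM4 rise to 9 hours (means 14.20 and 11.92), TUBB4A dips to 7.37 there, and TUBA4A is below its start at 6 hours (8.58) and above it at 12 hours (11.39).

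Gamma tubulin and its partners seed new microtubules. Of its 6 bright probe sets 4 were lower at 6 hours and none was higher, beside 39% and 31.6% of all bright probe sets. TUBGCP5, a subunit of the ring complex, had 5.59, 5.37, 5.16 and 5.53 at 6 hours, against 6.88 to 7.82 (median 7.36) at -22 hours, a change of -1.96 (3.88-fold lower, SE 0.18, adjusted p = 6.2e-11). It was still lower at 9 hours (-0.74, SE 0.14) and no longer called at 12 hours (-0.41, adjusted p = 0.0663). TUBGCP2 and TUBGCP4 were lower at 6 hours, with -0.88 (SE 0.18) and -0.72 (SE 0.16) for the TUBGCP2 probe sets and -0.77 (SE 0.18) for TUBGCP4, and none of these was called at 9 or 12 hours. TUBGCP3 was higher at 9 hours (0.79, SE 0.13). TUBG1, gamma tubulin itself, was higher at 12 hours (0.91, SE 0.19, adjusted p = 0.000143) and had 5.34 to 6.18 (median 5.74) at 48 hours, against 6.26 to 7.26 (median 6.87) at -22 hours, without overlap and lower in all 8 cows (-1.06, SE 0.15, adjusted p = 8.64e-06).

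At 48 hours all 3 alpha and 3 of the 4 bright beta tubulin probe sets were lower, as were 4 of the 7 Arp2/3 subunits. Over all bright probe sets 22.3% were lower at this hour, and families this small were not tested as sets. TUBB was the other beta tubulin, with -0.51 (SE 0.22, adjusted p = 0.0677). Centring each array on the median of its bright probe sets, which moves this hour by 0.13, raised the count of higher values among the 51 to 3.

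Of the 26 keratin probe sets, KRT18 alone was bright. KRT18, the simple epithelial keratin of hepatocytes, had 13.11, 13.06, 13.00 and 12.81 at 12 hours, against 10.29 to 11.31 (median 10.43) at -22 hours. All 4 arrays lay above every value before LPS. It was higher at 3 hours by 0.82 (SE 0.23, adjusted p = 0.023), at 6 hours by 1.66 (SE 0.23), at 9 hours by 1.38 (SE 0.19, higher in 8 of 8 cows) and at 12 hours by 2.43 (5.38-fold, SE 0.23, adjusted p = 1.12e-10), and stood at -0.05 at 48 hours (adjusted p = 0.862). The lower mean at 9 than at 6 hours sets 8 cows against 4: at 9 hours the 4 cows with every hour had 12.35, 12.46, 12.51 and 11.84 and the others 12.07, 11.58, 11.44 and 11.33. The probe set of KRT8, its partner, stayed between 1.69 and 1.78 on all arrays, near the bottom of the scale, so nothing can be read of it. Of the keratins of bile duct cells, KRT7 reached at most 3.96, and KRT19 lay at 2.23 to 3.25 on all arrays but that of cow 8 at -22 hours (5.27). Among the keratins of the epidermis, KRT14 and the dimmer probe set of KRT5 had 5.85 and 5.54 in cow 1 at 3 hours. The other arrays had 2.03 to 2.21 and 1.97 to 2.17. KRT10 had 7.39 on that array of cow 1 and 2.55 to 6.25 on the others. Not all followed: KRT17, KRT6B and KRT78 had 2.68, 1.96 and 1.86 on it. The brighter KRT5 probe set was lower on it than on the other arrays at 3 hours (3.63 to 3.82). The 4 measured skin markers averaged 4.51 on it, within their 4.36 to 4.57 at -22 hours. The other arrays at 3 hours had 4.38 to 4.42. This average says little, as DSG1, SFN and DSC1 lay near the bottom of the scale (means 2.07, 2.15 and 2.94). It mostly followed PERP, bright on all arrays, with 10.98 on that array and 10.60 to 10.65 on the others at 3 hours. Another DSG1 probe set had 2.39 on that array and 1.97 to 2.11 on all others. Whether this biopsy held skin was not tested. Calls near the bottom of the scale were small, as for KRT76, with 0.14 at 9 hours (SE 0.06, adjusted p = 0.0394), KRT20, with 0.10 at 6 hours (SE 0.04, adjusted p = 0.0317), and the light chain MYL6B, with 0.04 at 9 hours (SE 0.02, adjusted p = 0.0346). Each of these 3 was lost under several of the alternatives tried.

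The array of cow 5 at 9 hours carried the most leukocyte signal of its hour, with mean levels of 9.56 for the leukocyte and 11.53 for the neutrophil markers, against medians of 8.45 and 9.80. Its erythrocyte markers, all dim, were also the highest of that hour (3.37, against a median of 2.61). The same array had the highest values of that hour for ACTR3 (11.78, against 11.13 to 11.41 in the other cows), ARPC2 (12.44, against 11.98 to 12.11) and ARPC5 (11.23, against 10.40 to 10.72). These genes are named because cow 5 lay far from the others. ARPC1B (9.81, against 9.23 to 10.49) and ARPC4 (7.10, against 6.84 to 7.93) did not stand out in it. Without cow 5, and so with fewer arrays, 19 of the 51 were higher at 9 hours and 12 lower, with no share over all bright probe sets taken.

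Genes around these families were read through lists, each gene by its brightest probe set, and are given beside the shares over all probe sets. These were 23.3% higher and 22% lower at 6 hours (31.6% and 39% of the bright ones), 32% and 22.6% by 9 hours (40.4% and 38.8%), and 22.2% and 18.9% by 12 hours (37% and 32.7%). Of 20 measured genes of tubulin folding and microtubule binding, 3 rose (15%) and 11 fell (55%) by 6 hours, 2 rose (10%) and 13 fell (65%) by 9 hours, and 2 rose (10%) and 10 fell (50%) by 12 hours. Their median changes were -0.36, -0.39 and -0.22. TBCE, a chaperone of tubulin, had -1.49 at 6 hours (SE 0.19) and HDAC6, a tubulin deacetylase, -1.23 (SE 0.16).

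The other lists were small, and many of their shares lay near those of all probe sets. Of 16 SRF targets and contractile genes, 4 rose (25%) and 3 fell (18.8%) by 6 and again by 9 hours, and 4 rose and none fell by 12 hours. Among them CNN3 had 1.67 at 12 hours (SE 0.17), and ACTA2, the actin of stellate and smooth muscle cells, had -2.04 at 6 hours (SE 0.51, adjusted p = 0.00115). Of 9 genes of actin nucleation, none rose and 3 fell (33.3%) by 6 hours, 2 rose (22.2%) and 3 fell by 9 hours, and 1 rose (11.1%) and 4 fell (44.4%) by 12 hours. EVL, which helps filaments grow, had -1.93 at 9 hours (SE 0.18), and HCLS1, the cortactin of blood cells, 1.12 (SE 0.30). Of 12 genes of actin turnover and monomer binding, 2 rose (16.7%) and 5 fell (41.7%) by 6 hours, 2 rose and 4 fell (33.3%) by 9 hours, and 2 rose and 1 fell (8.33%) by 12 hours. The 1 that fell by 12 hours was DSTN, a relative of the cofilins, with -0.41 (SE 0.13), and it had -0.91 at 9 hours (SE 0.10).

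Of 16 membrane linkers, 4 rose (25%) and 7 fell (43.8%) by 6 hours, 6 rose and 6 fell (37.5% each) by 9 hours, and 5 rose (31.2%) and 7 fell by 12 hours. Those that fell by 12 hours included PDZK1, a scaffold of the hepatocyte membrane, with -6.95 (SE 0.43), and ANK3, an ankyrin, with -4.30 (SE 0.29). Of 8 genes of intermediate filaments and their junctions, 1 rose (12.5%) and 4 fell (50%) by 6 hours, 1 rose and 3 fell (37.5%) by 9 hours, and 2 rose and 2 fell (25% each) by 12 hours. The desmosomal PKP2 had -3.63 at 6 hours (SE 0.24), and JUP had -2.38 at 9 hours (SE 0.16). Of 7 myosin heavy chains and regulators, 1 rose (14.3%) and 3 fell (42.9%) by 6 and again by 9 hours, while 3 rose (42.9%) and 1 fell (14.3%) by 12 hours. PPP1CB, a myosin phosphatase subunit, had 1.10 at 12 hours (SE 0.09), and MYO10, a myosin of cell protrusions, had -2.27 at 9 hours (SE 0.17).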

How the data were processed

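Per the labels and the methods, the authors extracted total RNA from liver biopsies, labelled it with an oligo-dT primer and hybridised it to Affymetrix Bovine Genome Arrays. The deposited log2 values were made by the authors with GCRMA (background correction, quantile normalization and summary of each probe set) and were used as they are, for 36 arrays and 24128 probe sets, 112 of them controls. Symbols came from the platform annotation: 13318 probe sets name 1 gene, 86 several, and 10724 are not in the table, and 89 of the 91 members matched the RefSeq gene table. Old or wrong annotation cannot be detected here. Values near 2 cannot show a fall.

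A linear model with 1 mean per hour, fitted to all arrays and probe sets with limma 3.58.1 in R 4.3.3, gave each change against -22 hours (Benjamini-Hochberg, 0.05) and the successive comparisons (Bonferroni, 0.01). The same animals were sampled at each hour, so cows pair the arrays: deviations from the hourly means had a mean correlation of 0.316 for arrays of the same animal (lowest 0.116, highest 0.505) and of -0.0446 for different animals. The cow as a replicate block is an alternative. Others were centring on array medians, leaving dim probe sets out, the 4 cows with all hours, each cow left out, array weights, control probe sets left out and 1 probe set a gene. Leaving out single arrays, and 12 against 6 hours, were added after the values were seen.

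Named were, in each family, up to 3 genes with the largest called change in 1 direction in every cow, the brightest probe set, and all of ACTB and ACTG1, with up to 2 genes of largest change in each list. The result of 1 gene list is not reported here. Others were named because a count or a disagreement between probe sets turned on them, after their values were seen. The members, lists and rules were chosen with earlier results of these data known. The control probe sets labelled as actin are annotated to ACTA1 and were not used as a measure of beta-actin. Figures were drawn in Python 3.11.15.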

Additional observations from a re-analysis of the deposited data

Results flagged for a closer look

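Of 228 sets of 4 or 8 cows examined for the named probe sets, 26 held 1 cow farther from the others than Dixon's criterion allows, where chance gives about 1 in 20. Cow 5 at 9 hours was high for ACTR3 (11.78, the other cows 11.13 to 11.41), ARPC2 (12.44, others 11.98 to 12.11) and ARPC5 (11.23, others 10.40 to 10.72). Its leukocyte, neutrophil and erythrocyte markers were the highest of that hour, and the part of these cells was not tested.

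Cow 2 at 48 hours was high for TUBA1A (10.87, others 9.84 to 10.32), KRT18 (11.20, others 10.28 to 10.60), CAPZA1 (12.36, others 11.89 to 12.09) and TPM3 (11.23, others 10.72 to 10.94), and low for MYL12A (11.41, others 11.71 to 11.96). Cow 7 at -22 hours was high for TUBB4A (11.84, others 10.35 to 10.91) and low for CAPZA2 (8.52, others 8.76 to 8.96). Cow 1 at -22 hours was high for ACTR1A (8.55, others 7.64 to 8.03).

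The hours with 4 cows gave further single values. At 3 hours cow 8 was low for ACTR2 (10.81, others 11.18 to 11.23) and TUBB (7.65, others 8.35 to 8.46), cow 3 was high for ACTR3 (10.79, others 10.57 to 10.61) and low for KRT20 (2.46, others 2.59), and cow 1 was high for TUBGCP5 (7.29, others 7.01 to 7.04). At 6 hours cow 8 was high for ACTN1 (5.38, others 5.14 to 5.16) and CFL1 (10.43, others 10.23 to 10.25) and low for ACTN4 (9.33, others 9.64 to 9.66). At the same hour cow 3 was high for the dimmer ACTR8 probe set (5.05, others 4.28 to 4.31) and cow 1 low for MYL12A (11.43, others 11.55 to 11.58). At 12 hours cow 8 was high for TPM3 (11.41, others 11.23 to 11.25) and cow 7 for MYL12A (11.92, others 11.85 to 11.86). KRT76, at the bottom of the scale, was high in cow 7 at 6 hours (1.97, others 1.89 to 1.90), in cow 1 at 9 hours (2.54, others 1.89 to 2.14) and in cow 8 at 12 hours (2.06, others 1.88 to 1.89).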

How the results depend on the processing

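For the 38 named changes, 653 of 680 values under the alternatives kept direction and call, the other 27 kept direction but lost the call (ACTN4, TPM3, KRT20, KRT76 and MYL6B), and none reversed. Most counts stayed within 1.5 times, and the cause of each exception was not tested. Counts under the alternatives were taken for the members only, without the share over all probe sets. The pairing of arrays by cow as a replicate block gave 0 lower at 3 hours (all members and bright ones), 8 higher at 6 hours among all members and 1 higher at 48 hours among the bright ones, and moved no other count by over 1.5 times. Median centring gave 8 higher at 6 hours and 33 higher at 48 hours among all members, and 3 higher at 48 hours among the bright ones. Leaving dim probe sets out, which leaves fewer to test, gave 7 higher at 6 hours and 2 at 48 hours among all. The 4 cows with all hours, so fewer arrays, gave 0 lower at 3 hours in both sets, 6 higher at 6 hours, 15 at 9 hours (13 bright) and 1 at 48 hours among all. Array weights gave 3 lower at 3 hours in both sets, 28 higher at 6 hours among all and 1 higher at 48 hours among the bright ones. With 1 probe set a gene, and so fewer counted, 8 were higher at 6 hours, 5 lower at 12 hours and 9 higher at 48 hours among all, and 0 were lower at 12 than at 6 hours. Without the array of cow 1 at -22 hours, 2 were lower at 3 hours, 9 higher at 6 hours and 5 higher at 48 hours among all, and 1 higher at 48 hours among the bright ones. Without that of cow 7 at -22 hours, 0 were lower at 3 hours in both sets and 1 bright one was higher at 48 hours, and without that of cow 2 at 48 hours 5 of all were higher there. Leaving out 1 cow at a time gave 0 to 1 lower at 3 hours (both sets). Among all members it gave 6 to 12 higher at 6 hours, the lowest without cow 3. At 9 hours it gave 18 to 29 higher, 18 without cow 8. At 48 hours it gave 3 to 18 among all, with 3 without cow 1, 2 or 3, and 0 to 1 among the bright ones, with 1 without cow 1 or 5. The array of cow 6 at 48 hours and the control probe sets moved no count by over 1.5 times. Signal near the bottom of the scale limits the 40 dim members.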
